A study of Mus musculus with 6 samples.

Results

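The genes described here are 38 genes of G2, mitosis and cytokinesis, chosen by name for their known function and read from the 33084 genes of the count table. All 38 were found and all 38 had enough counts to be among the 19616 genes tested. The 6 libraries are of RNA from microdissected mouse forebrain taken on embryonic day 15.5. The controls are 3 wild-type samples, and the mutants are 3 samples whose genotype is written Dyrk1a<DlxCre/+>, or Dyrk1a<Dlx/+> in the sample titles. Dyrk1a, the gene of a kinase that acts in cell cycle exit, is there inactivated conditionally in the Dlx5 domain, where GABAergic neurons of the ventral forebrain are made, and the + sign is read as 1 allele left intact. Beyond DlxCre, the labels describe neither the Cre line nor the conditional allele, nor whether the controls carried either, so the inactivation and these background alleles cannot be told apart as sources of a difference. Litters are not named either, and p-values therefore measure only the spread between these 6 samples, which may in part be technical.

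A cell that divides has to condense its replicated chromosomes, capture each pair of sister chromatids on a bipolar spindle, hold back anaphase until every kinetochore is attached, and then cleave the cytoplasm. The genes for this machinery are transcribed in a wave in late S phase and G2, largely through the MuvB complex, which binds an element called the CHR in their promoters. Bound to p107 or p130 and E2F4 as the DREAM complex it represses them in resting cells, and bound to B-MYB and FOXM1 it activates them in dividing cells. DYRK1A phosphorylates the MuvB subunit LIN52, a step in the assembly of DREAM. In the embryonic forebrain most of these transcripts mark the dividing cells of the ventricular and subventricular zones, radial glia and intermediate progenitors. Postmitotic neurons largely lack them.

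The CHR is shown first because it is what the promoters of most of these genes share and what the choice of genes did not use. RefSeq promoters (GRCm38.p6, 250 bases before to 50 after the transcription start) were at hand for 32 of the 38 genes. The letters TTTGAA or TTCGAA, on either strand, were found in 27 of these 32 (84.4%), against 5854 of the 27025 genes of the promoter table (21.7%). Among 80 further mitosis genes, described below, 43 of 68 with a promoter held them (63.2%), and among 36 S phase genes 5 of 29 (17.2%). CCAAT, searched on either strand and free to share an end base with a CHR match, was in 26 of the 32 (81.2%) against 41.1% of all genes, and both motifs together were in 24 (75%) against 8.61%. In 23 of the 32 a CHR match began within the last 100 bases of the window, around the start, against 6.12% of all genes. That narrower window was chosen after the matches had been seen. A match is a description of these letters, not a tested binding site. Cdk1, Cdc20, Kif11, Top2a and Ube2c had matches shortly before the start, and Mki67 and Arhgap11a, the gene that behaved unlike the others below, had theirs further upstream. In these 30-base stretches, written 5′ to 3′ on the strand of the gene, capitals mark the CHR letters.
Cdk1, chr10:69352913-69352942, reverse strand: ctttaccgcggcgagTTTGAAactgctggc
Cdc20, chr4:118437344-118437373, reverse strand: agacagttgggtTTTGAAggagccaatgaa
Kif11, chr19:37376351-37376380, forward strand: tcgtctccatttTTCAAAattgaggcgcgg
Top2a, chr11:99024195-99024224, reverse strand: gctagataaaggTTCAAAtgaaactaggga
Ube2c, chr2:164769888-164769917, forward strand: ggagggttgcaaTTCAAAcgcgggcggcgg
Mki67, chr7:135716460-135716489, reverse strand: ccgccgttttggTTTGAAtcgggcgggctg
Arhgap11a, chr2:113848743-113848772, reverse strand: aagggtcctcatTTTGAAaacaggagcggg
The match began 15 bases before the start in Cdk1, 18 in Cdc20, 19 in Kif11, 23 in Top2a and 29 in Ube2c, and 98 in Mki67 and 99 in Arhgap11a. Ccnb1, Birc5, Cenpe, Nuf2 and Nusap1 held no CHR letters in this window, which says nothing of sequence outside it.

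The libraries held between 24646616 and 38315004 counts. Values per library are given as CPM, a gene's count relative to its library's total after TMM scaling, and the 38 genes together took between 2127 and 3529 CPM in controls and between 2252 and 3685 CPM in mutants. Single genes had between 274 counts (Ndc80, control replicate 2) and 22073 counts (Top2a, control replicate 3) in a library. Counting error was thus small beside the spread between libraries, except among the mutant libraries for Arhgap11a, described below. The replicate 3 libraries of both genotypes stood apart from the other 4 on the first principal component, which held 37.4% of the variance. Markers of radial glia, intermediate progenitors, neurons and GABAergic neurons listed for this tissue were above 0 in every library. Dyrk1a had 169, 183 and 180 CPM in controls and 186, 159 and 182 CPM in mutants (log2 fold change -0.02 ± 0.09, SE; two-sided exact permutation p = 0.90, n = 3 each, where 0.10 is the smallest possible). Its count covers the whole gene and does not isolate the deleted part, so it cannot check the genotype labels.

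Between genotypes the mitosis and spindle genes were nearly level. By the quasi-likelihood F test of edgeR, 0 of the 38 passed an adjusted p of 0.05 (Benjamini-Hochberg), where 0% of all 19616 genes passed. On the higher side 0 of the 38 were under an unadjusted p of 0.05, against 1.19% of all genes, and on the lower side 1 was, Arhgap11a, against 0.729%. DESeq2 and limma-voom also called 0 of the 38 and had Arhgap11a alone under 0.05. Fold changes are given as log2 of mutant over control, so values above 0 are higher in mutants. They were above 0 in 30 of the 38, against 47.5% of all genes, and below 0 in 8, against 52.5%, with a median of 0.06 against -0.01 over all tested genes. That median moved with the library left out. Leaving out control replicate 1 gave -0.04, control replicate 2 gave -0.07 and mutant replicate 3 gave -0.22. Leaving out mutant replicate 1 gave 0.19, mutant replicate 2 gave 0.17 and control replicate 3 gave 0.33. Such fits weigh the replicate 3 libraries, the highest in most of the 38 genes, unequally between the genotypes. Their medians follow that imbalance and cannot decide the direction between genotypes. With only the 4 libraries of replicates 1 and 2 the median was 0.04, with 26 of the 38 above 0. With replicate number as a block it was 0.06, with 29 above 0. Apart from Arhgap11a, the fold changes ran from -0.13 (Aurka) to 0.20 (Cdc20).

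**Figure D1:**
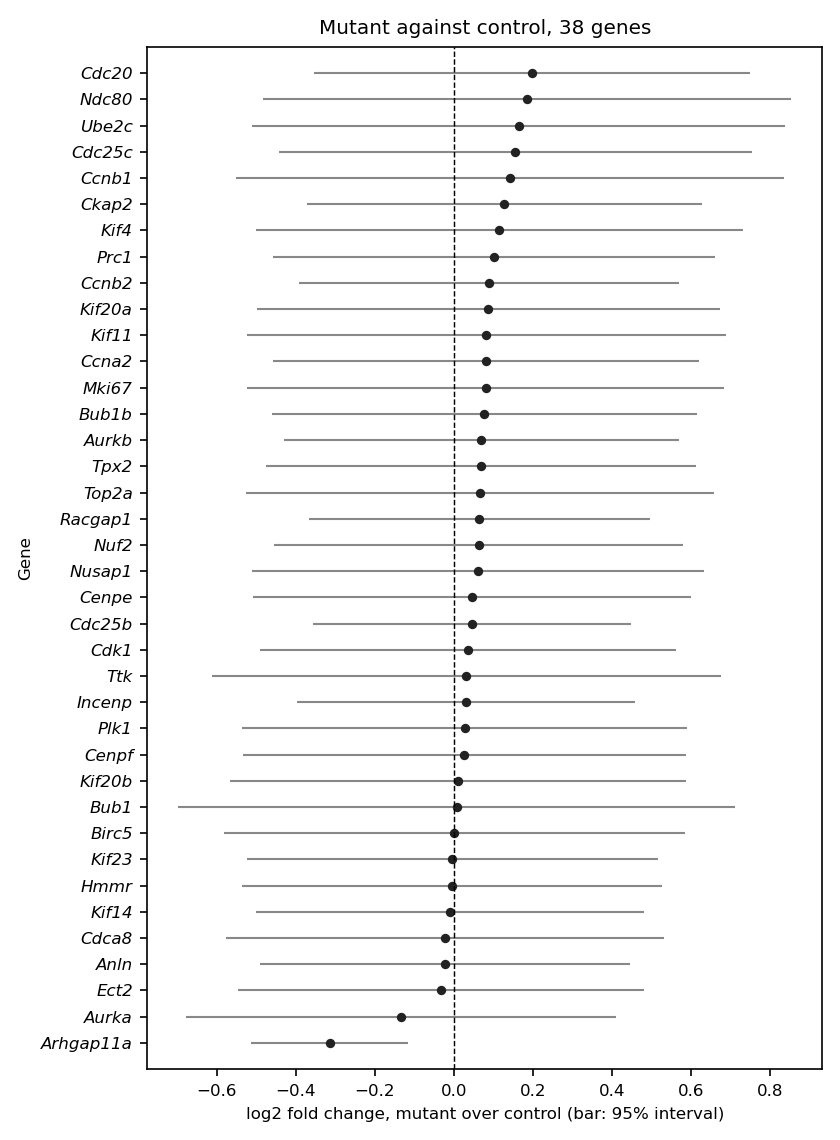
Log2 fold change of each of the 38 genes, mutant over control (horizontal axis, points), with its 95% interval (bars) from edgeR's quasi-likelihood fit of 3 control and 3 mutant libraries. Every interval except that of Arhgap11a, at the bottom, spans 0.

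The width of these intervals sets what this fit, which takes no account of replicate number, can say. The median standard error was 0.24 for the 38 genes and 0.15 over all tested genes. Each of the 38 intervals excluded a change of 2-fold in either direction, but only 15 excluded a change of 1.5-fold in either direction. In a fit with replicate number as a block the median standard error of the 38 was 0.08, and 0 of the 38 passed. The labels do not say what a replicate number stands for, so the intervals are given without the block. Within the 4 libraries of replicates 1 and 2, where the levels lay closer together, the median standard error of the 38 was 0.11, and 0 of the 38 passed there either, with 2 under an unadjusted p of 0.05, Arhgap11a and Cdc20, where 7.86% of all genes were. In RNA of microdissected forebrain, fewer dividing cells and less RNA per dividing cell cannot be told apart. Dividing cells outside the Dlx5 domain contribute to every value.

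The proliferation markers head the list by abundance. Top2a, which encodes the topoisomerase that untangles sister chromatids, had 367, 336 and 582 CPM in control replicates 1, 2 and 3 and 361, 358 and 627 CPM in the mutants. Mki67, whose product Ki-67 coats mitotic chromosomes and is the common marker of cycling cells, had 267, 259 and 467 CPM in controls and 276, 298 and 476 CPM in mutants. In both genes the replicate 3 library of each genotype was far above the other pair, and the 2 genotypes overlapped. Their log2 fold changes were 0.07 ± 0.26 and 0.08 ± 0.27 (SE). Per transcript length, on the RPKM scale (CPM per kilobase of the longest transcript), Top2a was the most abundant of the 38 in controls at 82.1 ± 25.6 RPKM, followed by Mki67 at 32.9 ± 11.7 and Ccna2 at 31.8 ± 8.51 (SD, n = 3). The difference between Mki67 and Ccna2 lay within their spread. Kif14, Ndc80 and Cdc25c were the lowest at 3.00 ± 0.67, 4.10 ± 1.51 and 5.81 ± 1.87 RPKM, and the median of the 38 was 13.5 RPKM. Kif14, a kinesin of the midbody, had 22.5, 24.3 and 33.7 CPM in controls and 23.4, 21.2 and 35.4 CPM in mutants, with the same high replicate 3 pair.

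Cyclins A and B activate CDK1, and CDC25 phosphatases remove its inhibitory phosphates. All 6 genes of this group had fold changes above 0, with a median of 0.08 and none past the test. Ccna2, cyclin A2, had 82.0, 77.3 and 123 CPM in controls and 89.0, 75.0 and 135 CPM in mutants. Cdc25c, which triggers entry into mitosis, had 13.4, 11.6 and 20.9 CPM in controls and 13.6, 14.4 and 23.3 CPM in mutants, a log2 fold change of 0.16 ± 0.26 (SE). Ccnb1, cyclin B1, the partner of CDK1 in mitosis, had 46.3, 42.1 and 67.8 CPM in controls and 43.7, 39.3 and 89.5 CPM in mutants. Its mean was higher in mutants (57.5 ± 27.8 against 52.1 ± 13.7 CPM, SD, n = 3 each) through mutant replicate 3 alone, since mutant replicates 1 and 2 lay below their control counterparts. Mutant minus control on the log2 CPM scale was -0.09, -0.10 and 0.40 for replicates 1, 2 and 3. Without mutant replicate 3 the log2 fold change of Ccnb1 was -0.33, in a fit that still held the high control replicate 3. Cdk1 itself was at 0.04, Ccnb2 at 0.09 and Cdc25b at 0.05.

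The kinetochore couples chromosomes to microtubules and carries the spindle checkpoint. All 7 genes of this group lay above 0, between 0.01 and 0.19, with a median of 0.05. Ndc80, the microtubule-binding subunit of the outer kinetochore, had 14.0, 11.1 and 22.3 CPM in controls and 14.7, 14.0 and 25.4 CPM in mutants, a log2 fold change of 0.19 ± 0.29 (SE). Its partner Nuf2 was at 0.06, the kinetochore kinesin gene Cenpe at 0.05 and Cenpf, a farnesylated protein of the outer kinetochore, at 0.03. Bub1, a checkpoint kinase gene, had the widest standard error of the 38, 0.31: its lowest value was 29.6 CPM in mutant replicate 2 and its highest 67.4 CPM in mutant replicate 3, with a fold change of 0.01. Bub1b and Ttk, which encode the checkpoint proteins BUBR1 and MPS1, were at 0.08 and 0.03.

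The chromosomal passenger complex corrects faulty attachments and later directs cleavage. Its kinase gene Aurkb was at 0.07, the scaffold gene Incenp at 0.03, the survivin gene Birc5 at 0.00 and the borealin gene Cdca8 at -0.02, so its 4 genes spanned less than 0.10 log2 units. Of the 8 genes for spindle kinases, motors and assembly factors, 6 lay above 0 and the median was 0.07. Ckap2, a microtubule-associated protein gene, had 27.4, 25.6 and 40.5 CPM in controls and 28.9, 28.5 and 44.8 CPM in mutants, or 0.13 ± 0.22 (SE). Aurka, the spindle pole kinase gene, had 24.3, 22.9 and 40.2 CPM in controls and 22.4, 23.3 and 34.3 CPM in mutants, or -0.13 ± 0.24 (SE). Both genes overlapped between genotypes. Tpx2, the activator of Aurora A, was at 0.07, and the kinesin genes Kif11 and Kif4 were at 0.08 and 0.12, with Plk1 at 0.03, Nusap1 at 0.06 and Hmmr at -0.00.

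CDC20 activates the anaphase-promoting complex and UBE2C is the ubiquitin-conjugating enzyme that serves it. Cdc20 had 37.5, 36.1 and 64.4 CPM in controls and 44.2, 46.3 and 67.9 CPM in mutants, so each mutant library lay above the control library of the same number, while the groups overlapped. It had the largest positive fold change of the 38, 0.20 ± 0.24 (SE; adjusted p = 0.9999, edgeR). In the edgeR fit of the 4 libraries of replicates 1 and 2 it was 0.30 ± 0.11 (SE), with an unadjusted p of 0.0111 and an adjusted p of 0.582. Without mutant replicate 3 it was -0.02, in a fit that still held the high control replicate 3. Ube2c was at 0.16. Cdc20 overlaps the tested gene Elovl1 on the opposite strand, and 9 of the 38 genes overlap such a partner: Ccna2, Cdc25b, Cdc25c, Cdca8, Kif20a, Kif4, Nusap1 and Prc1 besides Cdc20. Whether the counting used strand is not known from the labels, and if it did not, these counts hold reads of the partner too.

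The 9 genes of the central spindle and cytokinesis had 4 fold changes above 0 and 5 below, with a median of -0.00. Prc1, which bundles antiparallel microtubules, was at 0.10, the kinesin genes Kif20a, Kif20b, Kif23 and Kif14 were at 0.09, 0.01, -0.00 and -0.01, and Racgap1, a subunit of centralspindlin, was at 0.06. Ect2, the exchange factor that activates RhoA at the cleavage furrow, had 60.6, 50.9 and 78.9 CPM in controls and 56.0, 46.2 and 84.1 CPM in mutants, or -0.03 ± 0.23 (SE). Anln, the scaffold protein anillin, had 30.6, 32.0 and 47.5 CPM in controls and 31.6, 30.8 and 46.0 CPM in mutants, or -0.02 ± 0.21 (SE). For both, the difference between genotypes was far smaller than that between replicate 3 and the rest.

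Arhgap11a was the exception. It encodes a GTPase-activating protein for RhoA that acts at the cleavage furrow and in neurite growth (ENSMUSG00000041219, GRCm38 chromosome 2, 113831492 to 113848661, reverse strand). It had 75.0, 87.4 and 84.5 CPM in controls and 67.4, 65.6 and 65.6 CPM in mutants, so every mutant library lay below every control library. This was the case for 1 of the 38 genes, and for 3.70% of all tested genes, and 0 of the 38 had every mutant above every control, against 3.19%. The control mean was 82.3 ± 6.47 CPM and the mutant mean 66.2 ± 1.03 CPM (SD over 3 libraries). At mutant counts of 1917, 1665 and 1780, that mutant spread was no wider than counting error alone would give. The standard error of Arhgap11a was the smallest of the 38. The fitted log2 fold change was -0.31 ± 0.09 (SE; 95% interval -0.51 to -0.12), a percent change of -19.6. The unadjusted p was 0.00589, and the adjusted p over all genes was 0.9999 in edgeR's quasi-likelihood test, so the difference did not pass. Over the 15 alternative fits the fold change stayed between -0.38 and -0.23 and the smallest adjusted p was 0.428. Its small p had been seen in these data earlier, so these values describe the gene again and add no independent support. Arhgap11a overlapped no tested gene on either strand.

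**Figure D2:**
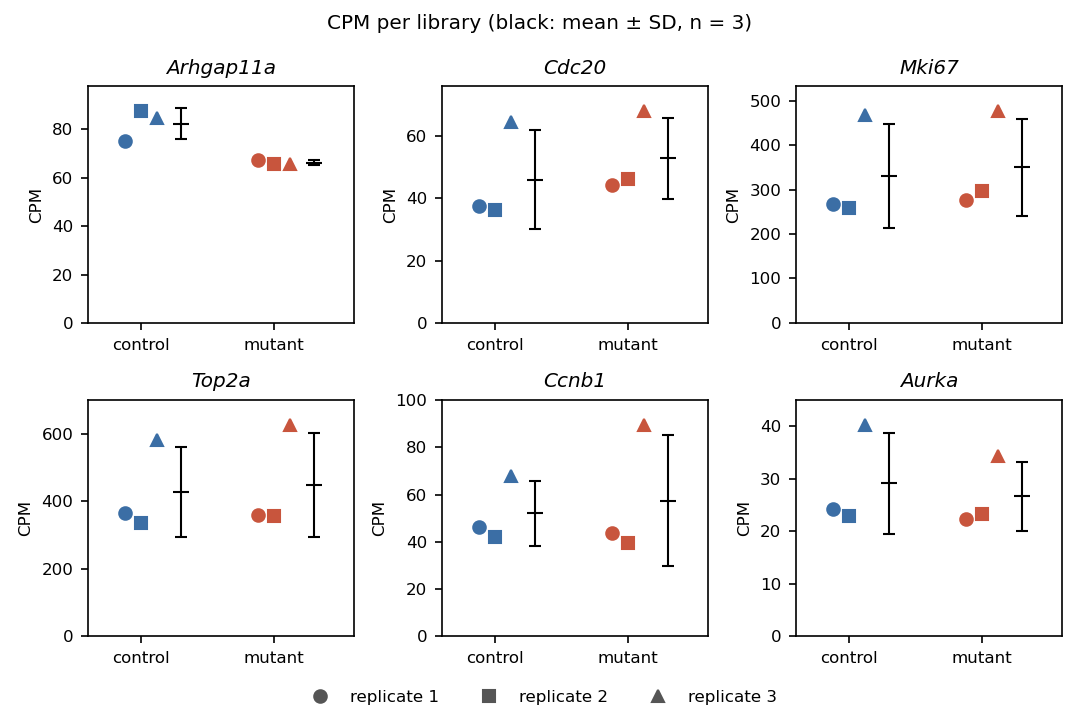
CPM per library (vertical axis, from 0) for 6 genes in 3 control (blue) and 3 mutant (red) libraries, with replicates 1, 2 and 3 as circles, squares and triangles and the mean ± SD in black. In Cdc20, Mki67, Top2a, Ccnb1 and Aurka the replicate 3 libraries are the highest of their groups, and in Arhgap11a all 3 mutants, at 65.6 to 67.4 CPM, lie below all 3 controls, at 75.0 to 87.4 CPM.

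Between libraries, rather than between genotypes, the genes moved together. In 37 of the 38 the 2 highest values were those of control replicate 3 and mutant replicate 3, against 17.3% of all tested genes, and Arhgap11a was again the exception. The mean of the 38 on the log2 CPM scale, relative to the mean of the controls, was -0.19, -0.26 and 0.45 in control replicates 1, 2 and 3 and -0.17, -0.19 and 0.50 in mutant replicates 1, 2 and 3. Replicate 3 was thus 0.67 log2 units above the mean of replicates 1 and 2 in controls and 0.68 above it in mutants. The difference between mutant and control of the same number was 0.02, 0.07 and 0.05 for replicates 1, 2 and 3. These are descriptions of 1 library per genotype, with no test.

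**Figure D3:**
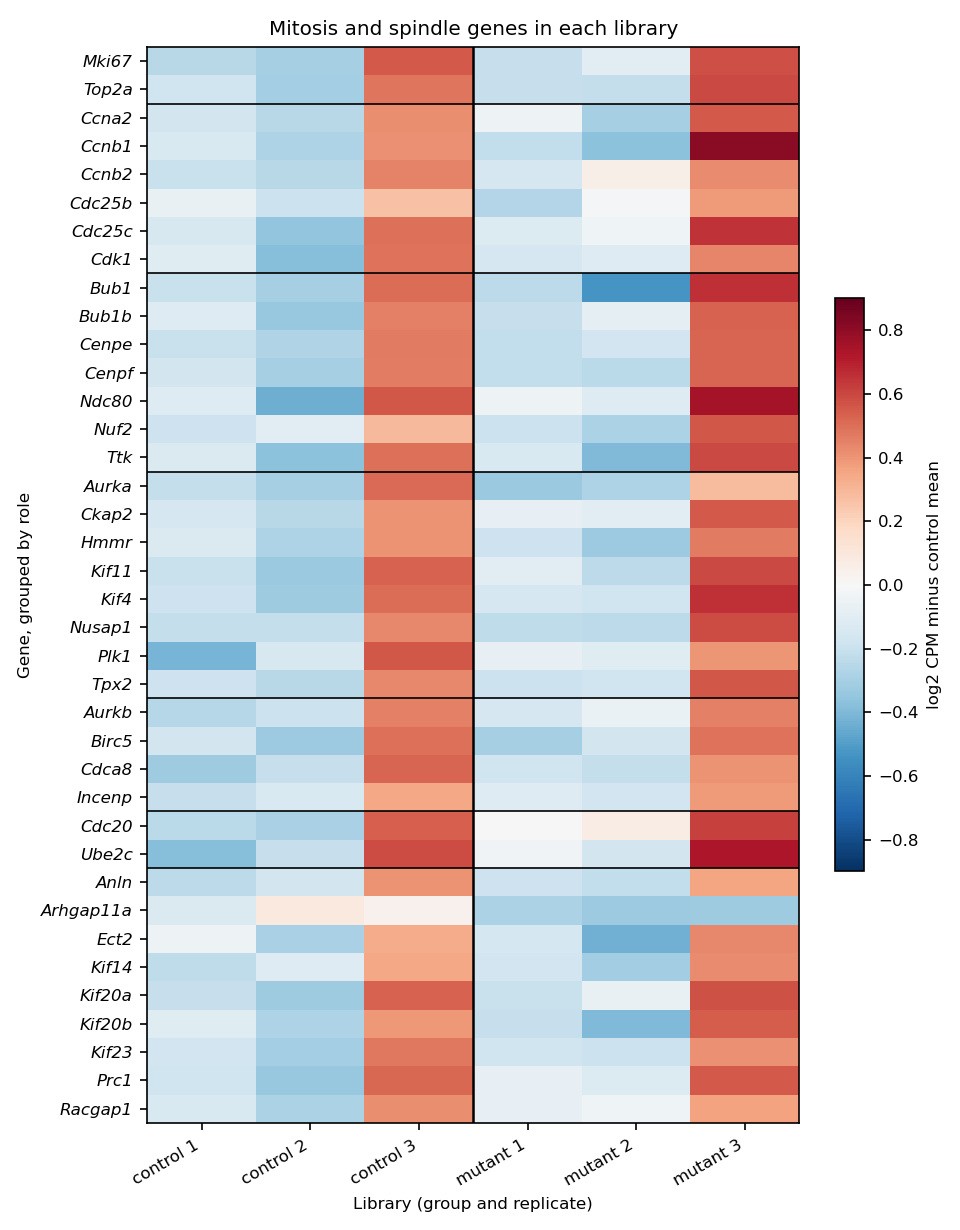
Log2 CPM of each of the 38 genes (rows, grouped by role) in each library (columns), relative to the mean of the 3 controls, with red for higher and blue for lower values. The replicate 3 columns of both genotypes are red for 37 genes, and the row of Arhgap11a is pale in the controls and blue in the mutants.

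Without Arhgap11a, the replicate 3 difference ran from 0.39 (Cdc25b) to 0.89 (Ube2c) in controls, with a median of 0.70, and from 0.42 (Racgap1) to 1.11 (Ccnb1) in mutants, with a median of 0.72. For Arhgap11a it was 0.06 in controls and -0.02 in mutants. Bub1 also had a large difference in mutants, 1.04, beside 0.75 in controls, and Plk1 a smaller one, 0.49 beside 0.84. Over all 6 libraries the highest value of a gene was between 1.33 times (Arhgap11a) and 2.29 times (Ndc80) its lowest. Within replicates 1 and 2 the same ratio lay between 1.01 (Nusap1) and 1.33 (Arhgap11a), with a median of 1.17, so these 4 libraries, 2 of each genotype, were close to level.

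**Figure D4:**
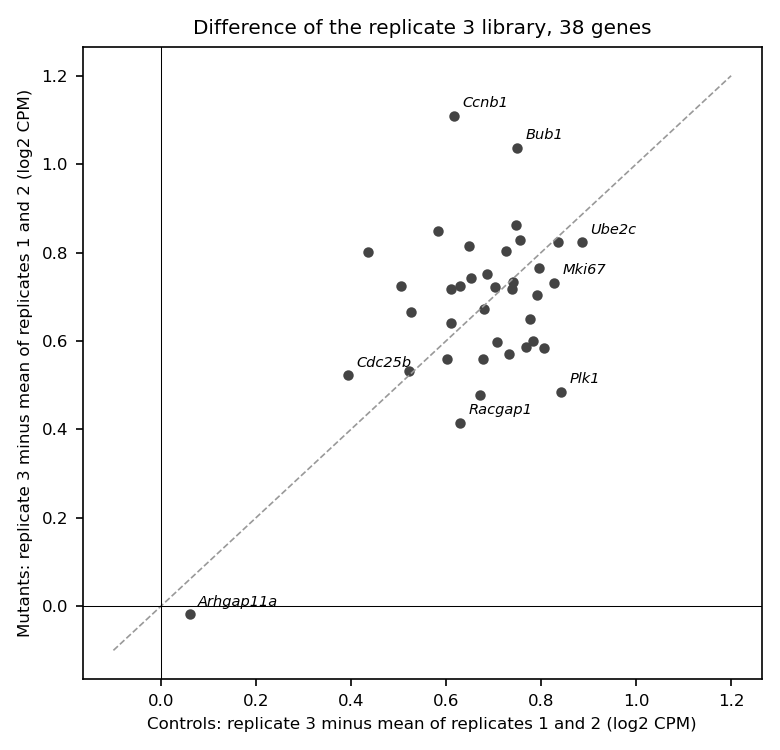
Difference of the replicate 3 library from the mean of replicates 1 and 2 on the log2 CPM scale, in controls (horizontal axis) and in mutants (vertical axis), 1 point per gene, with the line of equal values dashed. Arhgap11a lies near 0 on both axes and the other 37 genes between 0.39 and 1.11.

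Across the 6 libraries the level of each of the 37 other genes followed the mean of the remaining members with Pearson's r between 0.91 and 1.00 (median 0.98), while Arhgap11a had r = -0.05. These correlations rest on 6 libraries that fall into 4 and 2, so they restate the position of the replicate 3 libraries and carry no test. The median over all pairs of members was 0.96.

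Genes of the same pathway outside the 38 gave the same picture. Of the 80 further mitosis genes, 54 lay above 0 and 26 below, with a median of 0.03 and a range from -0.16 to 0.30, and 0 passed in either direction (edgeR's quasi-likelihood test; also 0 under an unadjusted p of 0.05 there, and 0 on both counts by DESeq2 and by limma-voom). Their direction too moved with the library left out. Without mutant replicate 3, 8 of the 80 lay above 0 with a median of -0.20. Without control replicate 3, 79 did with a median of 0.24. Leaving out control replicate 1 or 2 left 24 or 15 above 0, and leaving out mutant replicate 1 or 2 left 73 or 71. These fits too weigh the replicate 3 libraries unequally and cannot decide a direction. With only replicates 1 and 2, 43 of the 80 lay above 0 with a median of 0.01. With the replicate block 48 did, with a median of 0.02. The smallest p on the higher side belonged to Spc24, a kinetochore subunit gene, at 0.30 ± 0.28, the securin gene Pttg1 at 0.15 ± 0.17 and Pkmyt1, which encodes a kinase that inhibits CDK1, at 0.16 ± 0.18 (log2 fold change, SE). On the lower side they belonged to the centromere gene Cenpl at -0.12 ± 0.17, the spindle gene Troap at -0.16 ± 0.23 and the separase gene Espl1 at -0.13 ± 0.19. Spc24 had 8.24, 7.58 and 15.1 CPM in controls and 10.0, 12.1 and 16.1 CPM in mutants, with overlapping groups. Both replicate 3 libraries were the highest in 76 of these 80 genes.

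S phase genes, which replicate DNA before mitosis begins, moved alongside. All 36 had both replicate 3 libraries on top, and their mean stood 0.59 log2 units higher there in controls and 0.55 in mutants. Between genotypes 23 of the 36 were above 0 with a median of 0.02. The mean of the mitosis and spindle genes minus that of the S phase genes was -0.05, -0.01 and 0.06 in control replicates 1, 2 and 3 and -0.03, -0.03 and 0.10 in the mutants. This difference of list means was highest in the replicate 3 library of each genotype. Its sign carries no meaning by itself, because both lists are set relative to the mean of the controls. The share of cells in each phase was not measured. Of the 13 genes for DREAM and MuvB subunits and their partners, 3 lay above 0 and 10 below, with a median of -0.02, and 0 passed. Among them Lin52, whose product DYRK1A phosphorylates, was at 0.07 ± 0.11, E2f4 at -0.20 ± 0.11, Mybl2 at -0.02 ± 0.25 and Foxm1 at -0.04 ± 0.25 (SE).

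**Figure D5:**
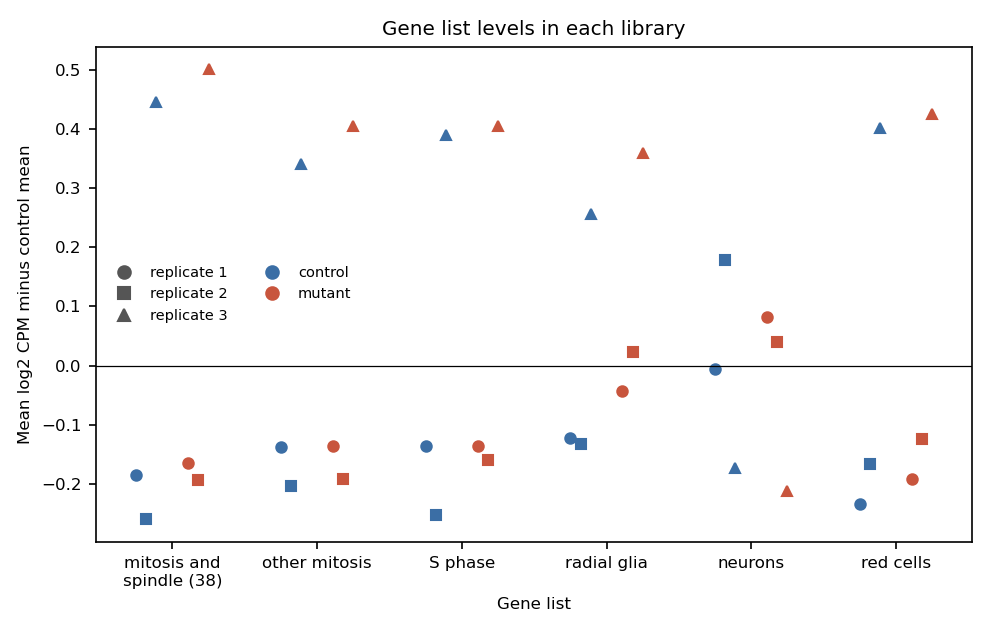
Mean log2 CPM of 6 gene lists in each library, relative to the mean of the 3 controls (vertical axis), with controls in blue, mutants in red and replicates 1, 2 and 3 as circles, squares and triangles. The replicate 3 libraries are highest for the mitosis, S phase, radial glia and red cell lists and lowest for the neuron list. In the red cell list single genes went both ways, with 5 of 10 highest and 4 of 10 lowest there.

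Cell type markers moved with the replicate 3 libraries too. Radial glia genes had both replicate 3 libraries on top in 7 of 10, with the list mean 0.38 higher in controls and 0.37 in mutants, and their summed level ran from 1465 to 1979 CPM in controls and from 1571 to 1983 CPM in mutants. Intermediate progenitor genes had 3 of 6, with means of 0.38 in both genotypes and sums of 225 to 330 and 266 to 353 CPM. Neuron genes had both replicate 3 libraries lowest in 7 of 9, against 3347 of all 19616 tested genes. Their means were -0.26 and -0.27 and their sums 5252 to 6228 and 5316 to 6162 CPM. Red cell genes had 5 of 10 highest and 4 of 10 lowest there, with sums of 602 to 757 and 626 to 836 CPM. The embryonic globin gene Hbb-y stood at 321 and 322 CPM in the replicate 3 libraries and at 27.8 to 42.5 CPM in the rest. The globin gene Hbb-bs went the other way, at 209 and 256 CPM in replicate 3 and 304 to 354 CPM in the rest. The median of the red cell list in replicate 3 was -0.03 in controls and 0.06 in mutants, relative to the control mean. Elsewhere both replicate 3 libraries were on top in 1 of 7 ventral progenitor genes, 1 of 6 GABAergic neuron genes, 3 of 7 endothelial, 0 of 7 microglial, 1 of 7 meningeal and 0 of 5 choroid plexus genes. Between genotypes the intermediate progenitor genes had a median log2 fold change of 0.20, with 6 of 6 above 0 and 0 past the test, and the radial glia genes one of 0.08, with 7 of 10 above 0 and 0 past the test. On the higher side 2 of the 6 intermediate progenitor genes and 1 of the 10 radial glia genes were under an unadjusted p of 0.05, against 1.19% of all genes. These were Gadd45g at 0.70 ± 0.21, Neurod4 at 0.45 ± 0.19 and Sox2 at 0.40 ± 0.16 (log2 fold change, SE), named after their values were seen. The lists too were chosen with earlier results of these data known, so these shares are a description and add no support. In Gadd45g and Sox2 the lowest mutant value exceeded the highest control value, and in Neurod4 the groups overlapped. Over all tested genes 3.19% had every mutant above every control. In the red cell, endothelial, meningeal and choroid plexus lists 1 gene each did so. The GABAergic neuron genes also had 6 of 6 fold changes above 0, and the endothelial and microglial genes 6 of 7 each. No gene of these lists was at 0 in a library. Their part in the level of the mitosis and spindle genes was not tested. The labels do not say what a replicate number stands for.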

How the data were processed

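Counts are raw read counts per gene as deposited by the authors. Per the submitters' processing notes, single-end reads were demultiplexed with bcl2fastq 2.17.1.14, aligned with HISAT2 to GRCm38 and counted with HTSeq 0.9.1, with SAMtools 1.9 also named. Per the labels' protocols, libraries came from a stranded total RNA kit with ribosomal RNA depletion. Whether HTSeq counted by strand is not stated in these sources. Groups were taken from the labels. Genes were tested in R 4.3.3 with edgeR 4.0.16 (filterByExpr with a minimum count of 10 and a total of 15, TMM, robust quasi-likelihood F test, mutant against control, no covariate), and p-values were adjusted by Benjamini-Hochberg over all 19616 tested genes with a threshold of 0.05. Standard errors are the fold change over the root of F. Per-library log2 CPM used a prior count of 2, and RPKM the longest GENCODE transcript. Intervals are at the 95% level. DESeq2 1.42.0 and limma 3.58.1 were alternatives among 15. The 38 genes and the other lists were chosen with earlier results of these data known. Values in every library are given for the 4 members with the smallest p in each direction, the 3 most and 3 least abundant per transcript length and any member whose groups do not overlap, and for the other mitosis genes the 3 with the smallest p in each direction are named. Ccnb1, Bub1 and Plk1 were singled out after their values were seen. Promoter sequences came from RefSeq.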

Additional observations from a re-analysis of the deposited data

How the results depend on the processing

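None of the 38 genes was called in any of the 15 alternatives, and the 80 further mitosis genes gave 0 calls in each. Over all genes 0 were called in 14 of the 15, and 3 were with only the 4 libraries of replicates 1 and 2, none of them a mitosis or spindle gene. The fold changes of all of the 38 but Arhgap11a lay within 1 SE of 0 and had no sign that held in every alternative. Over the alternatives 137 of 570 values had the other sign, none of them for Arhgap11a, the only gene past 1 SE. When each library was left out in turn, the median over the 38 ran from -0.22 to 0.33. Between 0 and 37 of the 38 were then above 0. These fits weigh the high replicate 3 libraries unequally between the genotypes, so that range cannot decide a direction. Samples of the same number had correlated deviations in 2 of 3 pairs (r = 0.24, 0.07 and 0.36), and control replicate 2 was closer to mutant replicate 1 (r = 0.35), so the numbers were not taken as pairs. With the replicate block the median was 0.06 with 29 of the 38 above 0 and 0 called, and 2 had an unadjusted p under 0.05, against 3.90% of all genes in that fit. With the replicate block and GC and length offsets 7 did, 6 of them higher, against 5.45% of all genes, with a smallest adjusted p of 0.555. The lowest count of the 38 in a library was 274. Their median standard error was 0.24 in the fit of all 6 libraries, 0.11 with only replicates 1 and 2 and 0.08 with the replicate block.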
